A study of Homo sapiens with 8 samples.

Results

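The promoters of collagen, laminin, integrin and matrix metalloproteinase genes were followed through a pull-down of oxidatively damaged DNA. The genes were chosen by symbol, as autosomal protein-coding genes named COL, LAMA, LAMB, LAMC, ITGA, ITGB or MMP with a number or letter. RefSeq lists 103 such genes, and 86 of them could be paired with a row of the promoter table, out of 19957 rows in all. The 86 were 34 collagens, 12 laminins, 21 integrins and 19 metalloproteinases. The rule uses symbols and no measured value, but the set was proposed with earlier results of these data known.

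OGAP-seq pulls down DNA fragments that carry oxidative base damage and sequences them, and the input libraries hold genomic DNA that was not pulled down. The cells were RPE1, an immortalised human line of retinal pigment epithelial origin, and the labels give no further treatment. In the KD groups NuMA (also called TDIF), a large nuclear and spindle-pole protein, had been depleted and the cells were taken after doxycycline. In the WT groups the genotype is given as wild type and no doxycycline had been added, so doxycycline and depletion cannot be told apart. There were 4 groups of 2 libraries, namely KD OGAP, WT OGAP, KD input and WT input, all from the same line. The labels do not tie the 2 libraries of a group to separate cultures, so p-values measure only the spread between libraries that may be technical replicates. The libraries hold DNA, so markers of the cell type could not be checked.

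Each row of the table counts the reads in a window of 2001 bp around a gene start. The 8 libraries held 368593 to 771138 reads in all windows together, and the 86 windows took 0.469% to 0.535% of them. The median window of the 86 held 19 to 33.5 reads in an OGAP library and 38 to 47.5 in an input library. Levels below are in CPM, reads scaled to a common library size, after TMM scaling, which sets each library against the typical promoter window. A higher value therefore means more reads relative to the typical promoter window, not more damage than in the rest of the genome. It is close to a larger share of all promoter reads, but not the same.

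The 4 families build and read the extracellular matrix. Collagens form fibrils and sheet-like networks. Laminins are trimers of an alpha, a beta and a gamma chain that form the scaffold of basement membranes. Integrins are receptors of an alpha and a beta subunit through which cells hold on to collagen, laminin and fibronectin, and metalloproteinases are secreted or membrane-bound enzymes that cut the matrix. Retinal pigment epithelium rests on a basement membrane of laminins and type IV collagen. OGAP-seq reads the state of the DNA at these promoters and says nothing of whether the genes are expressed.

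The promoter sequences of 7 of the 10 windows that passed the test in WT follow, from the RefSeq promoter table (GRCh38.p14). They show annotated starts that lie within 500 bp of the window centres. Reads were counted over the whole windows only, so nothing was measured for the printed bases alone. Each runs 5′ to 3′ on the strand of the gene, from 250 bases before to 50 bases after its annotated start, and lies inside the counted window. Capitals mark matches on either strand to TATAAA (the TATA box motif), TGANTCA (the AP-1 motif) and GGGCGG (the GC box). The GC box reads CCGCCC on the other strand, and no marked matches overlap. ITGA10 (chr1:145910001-145910300, minus strand), ITGA2B (chr17:44389600-44389899, minus), ITGB5 (chr3:124901369-124901668, minus) and COL17A1 (chr10:104085831-104086130, minus) were higher in OGAP. LAMC1 (chr1:183023170-183023469, plus strand), COL13A1 (chr10:69801656-69801955, plus) and MMP23B (chr1:1631923-1632222, plus) were lower. ITGA10, LAMC1, COL13A1 and MMP23B were printed by rule, as the lowest p of each family in WT with an entry in that table, and the other 3 were added after their values had been seen. COL4A1 has an entry too (76.7% G and C, 45 CG dinucleotides) but is not printed because its window overlaps another, and COL3A1 and COL22A1 have none.
ITGA10: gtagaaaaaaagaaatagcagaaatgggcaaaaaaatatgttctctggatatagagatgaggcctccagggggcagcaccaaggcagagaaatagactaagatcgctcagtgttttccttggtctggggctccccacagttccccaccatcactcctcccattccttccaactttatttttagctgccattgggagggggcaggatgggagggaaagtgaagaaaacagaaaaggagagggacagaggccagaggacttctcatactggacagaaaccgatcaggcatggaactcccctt
ITGA2B: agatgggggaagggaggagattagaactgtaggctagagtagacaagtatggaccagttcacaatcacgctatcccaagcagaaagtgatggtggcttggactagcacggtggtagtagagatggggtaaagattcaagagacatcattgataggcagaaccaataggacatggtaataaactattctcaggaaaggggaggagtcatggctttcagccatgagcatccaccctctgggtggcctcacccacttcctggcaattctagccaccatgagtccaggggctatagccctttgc
ITGB5: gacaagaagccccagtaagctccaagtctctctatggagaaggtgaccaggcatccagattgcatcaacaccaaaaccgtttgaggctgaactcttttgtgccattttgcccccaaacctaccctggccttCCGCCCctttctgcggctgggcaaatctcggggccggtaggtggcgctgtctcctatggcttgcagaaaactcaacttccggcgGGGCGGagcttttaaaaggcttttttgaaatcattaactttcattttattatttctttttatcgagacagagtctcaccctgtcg
COL17A1: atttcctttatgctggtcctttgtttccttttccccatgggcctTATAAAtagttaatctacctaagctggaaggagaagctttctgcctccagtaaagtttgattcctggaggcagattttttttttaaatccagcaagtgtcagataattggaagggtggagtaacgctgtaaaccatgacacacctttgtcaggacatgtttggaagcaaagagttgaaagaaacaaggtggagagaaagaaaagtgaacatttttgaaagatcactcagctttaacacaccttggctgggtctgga
LAMC1: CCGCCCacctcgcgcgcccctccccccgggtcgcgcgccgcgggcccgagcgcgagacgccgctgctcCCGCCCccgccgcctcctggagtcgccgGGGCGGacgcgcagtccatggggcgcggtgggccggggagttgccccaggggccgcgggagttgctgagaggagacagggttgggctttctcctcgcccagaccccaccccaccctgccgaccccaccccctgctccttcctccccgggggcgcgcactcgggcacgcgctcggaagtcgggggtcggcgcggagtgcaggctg
COL13A1: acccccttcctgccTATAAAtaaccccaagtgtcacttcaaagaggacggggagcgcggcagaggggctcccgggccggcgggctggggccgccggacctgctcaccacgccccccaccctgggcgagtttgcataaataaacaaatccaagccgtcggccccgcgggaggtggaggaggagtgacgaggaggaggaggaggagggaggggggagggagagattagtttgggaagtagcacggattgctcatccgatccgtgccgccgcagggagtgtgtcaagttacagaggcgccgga
MMP23B: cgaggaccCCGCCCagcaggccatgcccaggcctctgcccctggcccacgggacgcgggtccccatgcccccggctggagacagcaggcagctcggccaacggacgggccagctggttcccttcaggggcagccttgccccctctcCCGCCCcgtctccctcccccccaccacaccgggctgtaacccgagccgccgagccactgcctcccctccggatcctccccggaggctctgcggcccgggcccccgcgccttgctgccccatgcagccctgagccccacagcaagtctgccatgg

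The ITGA10, ITGA2B, ITGB5 and COL17A1 stretches held 48.7%, 49.7%, 49.7% and 40.7% G and C, with 2, 2, 11 and 1 CG dinucleotides. The LAMC1, COL13A1 and MMP23B stretches held 79%, 64% and 75%, with 41, 22 and 21 CG dinucleotides. COL17A1 and COL13A1 have 1 TATAAA match each, towards the 5′ end of the stretch and far from the annotated start. LAMC1 has 3 GGGCGG matches, and ITGB5 and MMP23B have 2 each. ITGA10 and ITGA2B have no match to any of the motifs, and no stretch has TGANTCA. Of 12038 RefSeq promoters of this length, 9.59% hold TATAAA, 5.44% TGANTCA and 60.7% GGGCGG. These are descriptions of 7 sequences, and no link between base composition and direction is drawn from them. Members outside the 7 went both with and against the split between higher and lower windows, but more went with it. Most tested members with a low share of G and C had positive WT changes, and most with a high share had negative ones. The examples that follow were picked from each side and do not show this balance. Against it, LAMB1 (71% G and C, 35 CG dinucleotides) had a WT log2 change of 0.78 and COL21A1 (58.3%, 4) one of -1.004. With it, LAMA5 (82.7%, 41) was at -0.90 and MMP26 (39%, 0) at 0.95. None of these passed the threshold. Only 57 of the 86 members have an entry in the promoter table, so base composition can be described for those 57 and not for the whole set. How it relates to the changes was not tested.

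OGAP over input in WT cells asked which of these promoters stood higher or lower in the pull-down than in genomic DNA, relative to the typical window. ITGA10, ITGA2B and ITGB5 of the integrins and COL3A1 and COL17A1 of the collagens were higher in OGAP, by log2 changes of 0.92 to 1.87. LAMC1, the collagens COL13A1, COL4A1 and COL22A1, and MMP23B had log2 changes of -1.0 to -1.73. These 10 were 12.0% of the 83 members tested, against 13.7% of all 17130 windows (edgeR quasi-likelihood test, Benjamini-Hochberg adjusted p under 0.05, n = 2 libraries per group). Among all windows 9.25% were higher and 4.45% lower, and the 5 higher and 5 lower members stand near these shares. The median log2 change was -0.02 over the members and -0.02 over all windows. The summed level of the 83 windows was 5067 and 4973 CPM in WT OGAP against 5167 and 5128 CPM in WT input, a ratio of 0.975 with both OGAP sums lower. In KD the sums overlapped, at 5289 and 4738 CPM in OGAP against 5162 and 5239 CPM in input. At an unadjusted p under 0.05 there were 29 members, 13 higher and 16 lower, beside 28.5% of all windows (16.3% higher and 12.1% lower). COL4A3, COL4A4 and ITGA7 had too few reads to be tested, and each overlaps a neighbouring window.

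The count of 10 rested on few libraries. It was 4 without WT OGAP replicate 2, 5 without WT input replicate 1, 3 without WT input replicate 2, and 2 (ITGA10 and LAMC1) with DESeq2. The count over all windows fell alike in these fits, to 1210, 1505, 879 and 884, against 2346 with all libraries in edgeR. LAMC1 passed under every alternative run, and ITGA10 under all except the fit without WT OGAP replicate 2 (1.33, adjusted p = 0.0524, edgeR).

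**Figure D1:**
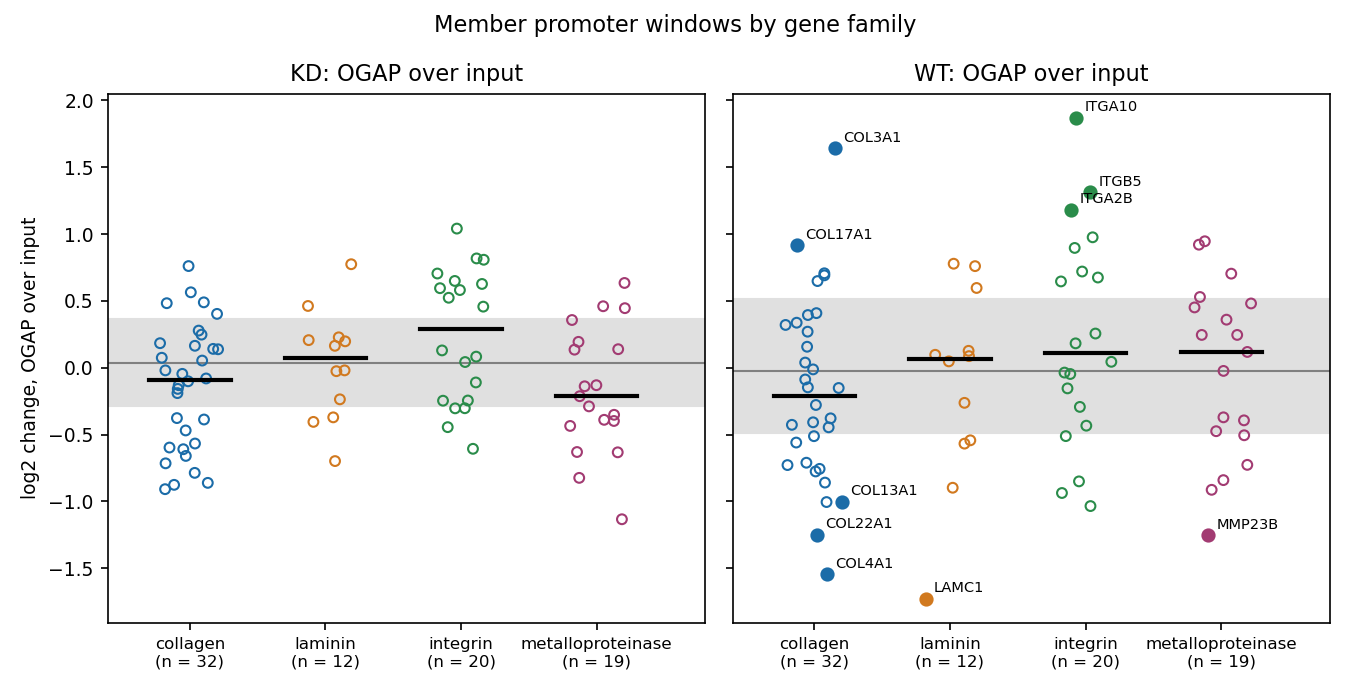
Log2 change of OGAP over input for each tested member window, by family, in KD cells on the left and in WT cells on the right. Each point is 1 promoter, filled and named where it passed the adjusted threshold of 0.05, black bars are family medians, and the grey line and band are the median and the middle 50% of all 17130 windows; the filled points lie in the WT panel, and the integrin median lies above the grey line in both panels.

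Among the integrin receptors, the collagen-binding alpha subunit ITGA10 had the lowest p of the whole set. The ITGA10 window (ENSG00000143127, hg38 chromosome 1, 145909190 to 145911190, minus strand) had 82.4 and 156 CPM in WT OGAP against 40.7 and 24.6 CPM in WT input. Both OGAP libraries lay above both inputs, although the gap between the OGAP libraries was wider than that between the lower of them and the inputs. The log2 change was 1.87 ± 0.35 (SE), with an adjusted p of 8.45e-05 (edgeR). ITGA11 and ITGA2, the other collagen-binding subunits tested, were at -0.29 ± 0.33 and -0.94 ± 0.40 and did not pass (adjusted p = 0.598 and 0.106, edgeR).

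ITGA2B encodes the alpha subunit of the platelet fibrinogen receptor. Its window (ENSG00000005961, chromosome 17, 44388506 to 44390506, minus strand) had 99.4 and 151 CPM in WT OGAP against 66.5 and 44.1 CPM in WT input. The groups did not overlap, and the change was 1.18 ± 0.32 (adjusted p = 0.00693, edgeR). ITGB5, the beta subunit that pairs with alpha V to bind vitronectin, had 82.4 and 89.8 CPM in WT OGAP against 38.0 and 31.1 CPM in WT input (window ENSG00000082781, chromosome 3, 124900419 to 124902419, minus strand). Its libraries agreed closely within each group, and the change was 1.31 ± 0.38 (adjusted p = 0.0109, edgeR). ITGA2B and ITGB5 did not pass without WT OGAP replicate 2 (0.85 and 1.25), without WT input replicate 2 (0.91 and 1.17) or with DESeq2 (1.18 and 1.32).

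No integrin window of the 20 tested was lower past the threshold, which stands near the 4.45% of all windows that were. The lowest was ITGB8, a beta subunit that activates latent TGF-beta, at -1.03 ± 0.41 (adjusted p = 0.0798, edgeR). The alpha subunits ITGAM, ITGAX and ITGAD, which pair with the leukocyte beta subunit, lie side by side on chromosome 16 and were all positive in both states. Their log2 changes were 0.65, 0.08 and 0.71 in KD and 0.65, 0.04 and 0.90 in WT, and none passed (lowest adjusted p = 0.356 in KD and 0.0589 in WT, edgeR).

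Of the collagens, 2 of 32 tested windows were higher and 3 lower. COL3A1, the fibrillar type III collagen of stretchable tissue, had 62.5 and 50.2 CPM in WT OGAP against 12.2 and 23.4 CPM in WT input (window ENSG00000168542, chromosome 2, 188973319 to 188975319, plus strand). The groups were well apart, but the input values rest on 9 and 18 reads. The change was 1.64 ± 0.51 (adjusted p = 0.0194, edgeR). The other 7 fibrillar collagens ranged from -0.73 (COL1A1) to 0.32 (COL1A2), and none passed. COL3A1 did not pass without WT OGAP replicate 1 (1.47) or 2 (1.796), or without WT input replicate 1 (1.25).

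COL17A1, a transmembrane collagen of hemidesmosomes, had 85.2 and 103 CPM in WT OGAP against 55.6 and 44.1 CPM in WT input (window ENSG00000065618, chromosome 10, 104085003 to 104087003, minus strand). Its change was 0.92 ± 0.33 (adjusted p = 0.0485, edgeR), close to the threshold. The KD input libraries, at 90.7 and 76.2 CPM, lay near the OGAP values, so that the change in WT goes with a low WT input; its part in the result was not tested. Leaving out any of the 4 WT libraries gave COL17A1 an adjusted p of 0.0751 to 0.275, and leaving out KD input replicate 1 or 2 gave 0.0597 and 0.0579 (edgeR).

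COL13A1, another transmembrane collagen, behaved the other way. The COL13A1 window (ENSG00000197467, chromosome 10, 69800930 to 69802930, plus strand) had 59.7 and 66.1 CPM in WT OGAP against 137 and 116 CPM in WT input. Both OGAP libraries lay far below both inputs, and the change was -1.0 ± 0.32 (adjusted p = 0.0216, edgeR). COL13A1 did not pass when any of the 4 WT libraries was left out (-0.88 to -1.12, adjusted p = 0.0536 to 0.125, edgeR).

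COL4A1 and COL22A1 passed narrowly. COL4A1, a chain of the type IV collagen network of basement membranes, had 17.04 and 13.2 CPM in WT OGAP against 35.3 and 53.2 CPM in WT input, with a change of -1.54 ± 0.55 (adjusted p = 0.0452, edgeR). Its window (ENSG00000187498, chromosome 13, 110306150 to 110308150, minus strand) overlaps that of a neighbour and rests on 6 and 5 reads in WT OGAP, so its value is uncertain. COL22A1, a collagen of tissue junctions (ENSG00000169436, chromosome 8, 138913007 to 138915007, minus strand), had 22.7 and 23.8 CPM in WT OGAP against 46.1 and 64.9 CPM in WT input. Its change was -1.25 ± 0.45 (adjusted p = 0.0487, edgeR). COL4A1 lost its call without WT OGAP replicate 1 (-1.74), WT OGAP replicate 2 (-1.37), WT input replicate 2 (-1.22), KD input replicate 1 (-1.55) or KD input replicate 2 (-1.55). COL22A1 lost its call when any of the 8 libraries other than KD OGAP replicate 2 was left out (-0.98 to -1.48).

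Of the laminins, the gamma chain LAMC1, which is part of most laminin trimers, was the only one of 12 tested windows to pass. LAMC1 (ENSG00000135862, chromosome 1, 183022459 to 183024459, plus strand) had 34.1 and 31.7 CPM in WT OGAP against 103 and 116 CPM in WT input. Both groups were tight and far apart, with a change of -1.73 ± 0.37 (adjusted p = 0.000468, edgeR). LAMC3, another gamma chain, was at 0.76 ± 0.31 (adjusted p = 0.0900, edgeR), with 117 and 108 CPM in WT OGAP against 59.7 and 72.6 CPM in WT input. The alpha chain LAMA5, a component of mature basement membranes, was at -0.90 ± 0.34 (adjusted p = 0.0659, edgeR), with 65.3 and 37.0 CPM in WT OGAP against 94.9 and 94.7 CPM in WT input. The remaining laminin chains ranged from -0.57 (LAMA3) to 0.78 (LAMB1), and none passed.

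Of the 19 metalloproteinases, 1 passed. MMP23B, a metalloproteinase with an unusual membrane anchor at its amino end, had 39.8 and 26.4 CPM in WT OGAP against 73.2 and 84.3 CPM in WT input (window ENSG00000189409, chromosome 1, 1631094 to 1633094, plus strand). The change was -1.25 ± 0.40 (adjusted p = 0.0234, edgeR). MMP23B lies in a stretch of chromosome 1 with a near-identical copy, the pseudogene MMP23A, so reads could be split between the copies. Its call was lost without WT OGAP replicate 2 (-0.98), WT input replicate 1 (-1.36) or WT input replicate 2 (-1.15).

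Among the metalloproteinases, the membrane-anchored enzymes and those of the gene cluster on chromosome 11 are described by their counts, with no test between them. All 5 tested membrane-type enzymes, MMP14, MMP15, MMP17, MMP24 and MMP25, had negative changes, from -0.37 to -0.91 in WT, and none passed. Over all windows 48.7% were positive in WT. In KD 1 of the 5 was positive, MMP14 at 0.14, with a median of -0.63. MMP15 was nearest, with 36.9 and 71.3 CPM in WT OGAP against 111 and 94.7 CPM in WT input (-0.91 ± 0.34, adjusted p = 0.0550, edgeR). MMP1, MMP3, MMP7, MMP10, MMP12, MMP13, MMP20 and MMP27 lie between 102529754 and 102956735 on chromosome 11, among them the collagenases and stromelysins. Of these 8 windows all except MMP7 (-0.02) were positive in WT, with a median of 0.47, where 3 of the other 11 metalloproteinases were positive, with a median of -0.47. In KD the counts were 3 of 8 with a median of -0.13 and 4 of 11 with a median of -0.35. No window of the cluster passed in either state. MMP26, the small matrilysin on the other arm of chromosome 11, was at 0.95 ± 0.41 in WT and did not pass (adjusted p = 0.111, edgeR), with 68.2 and 52.8 CPM in WT OGAP against 36.6 and 25.9 CPM in WT input.

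**Figure D2:**
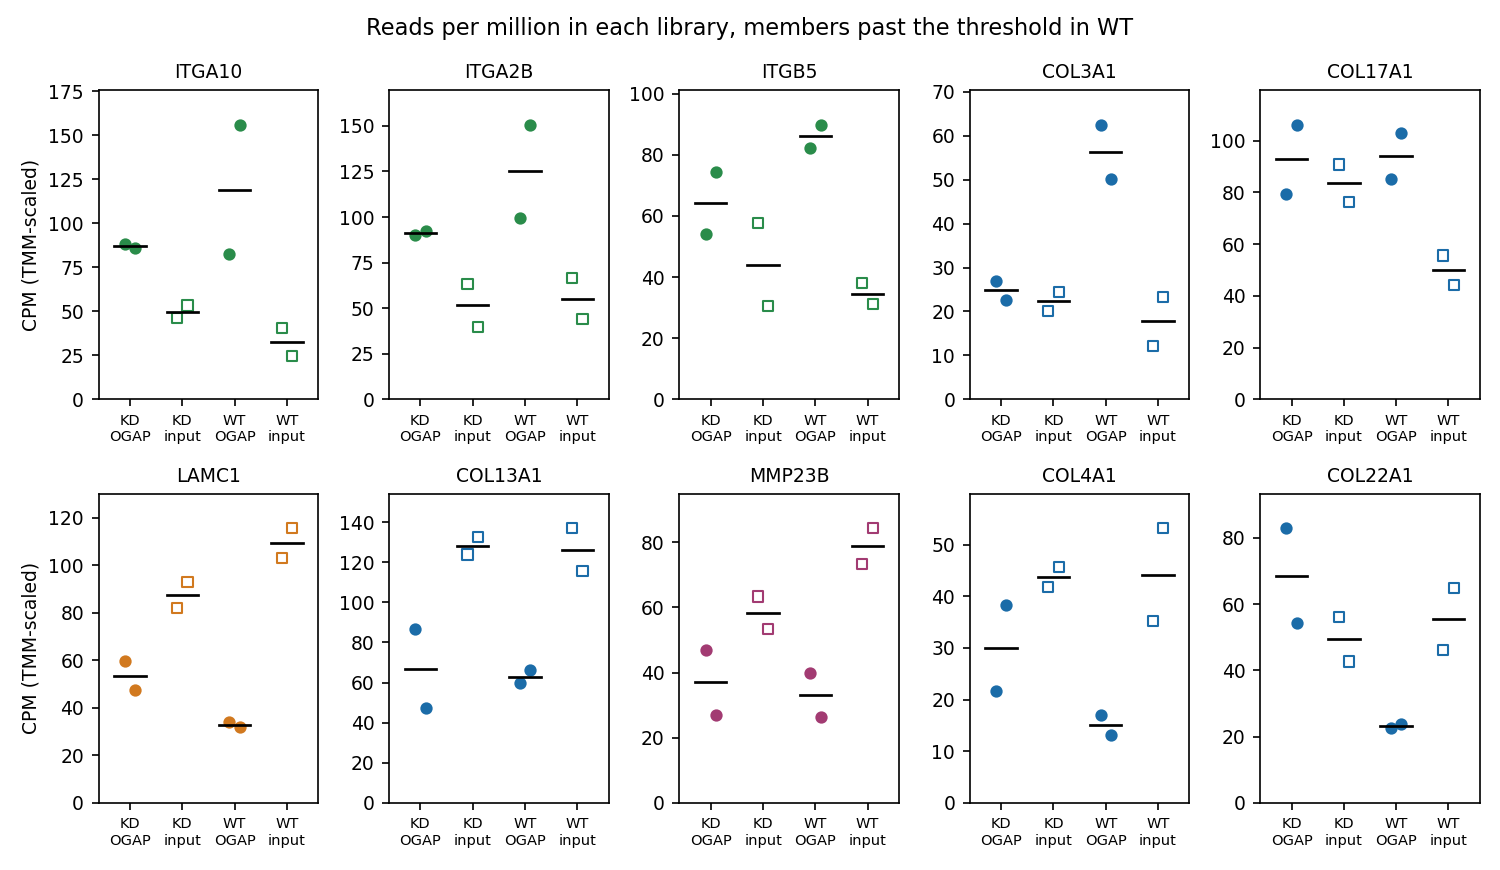
TMM-scaled CPM (vertical axes, each from 0) in each of the 8 libraries for the 10 members past the threshold in WT, with KD OGAP, KD input, WT OGAP and WT input from left to right. Filled circles are OGAP libraries, open squares input libraries and bars the means of 2; the windows were picked for their difference in WT, which fixes most of what the WT points show, and in KD the means of OGAP and input are closer to each other in all 10.

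The changes went with the number of reads that a window had in input. The KD input libraries were used for this level, because they share no library with the WT comparison. Across the 83 members the Spearman correlation of the WT change with the KD input level was -0.40, and across all 16416 autosomal windows tested it was -0.287. The points of each correlation share the same libraries and depth. When all autosomal windows were ranked by KD input into 5 bins, the median WT change was 0.30 in the lowest bin and -0.33 in the highest. The members in those bins had medians of 0.42 (10 windows) and -0.38 (29 windows). The chromosome 11 cluster had a median KD input of 40.3 CPM, against 75.2 CPM for the other metalloproteinases. Its median WT input was 30.1 CPM, against 78.8 CPM for the others. From WT to KD the median log2 change of the cluster was 0.31 in input, with 6 of 8 windows higher. In OGAP it was -0.10, with 4 of 8 higher. All windows of the cluster except MMP1 fell in the 2 lowest bins of KD input, where the medians of all windows were 0.30 and 0.12. Of the membrane-type enzymes, MMP15, MMP24 and MMP25 fell in the highest bin, MMP17 in the next and MMP14 in the middle one. The medians of all windows in these bins were -0.33, -0.14 and -0.01. The part of the input level in the cluster's positive changes, or in the negative changes of the membrane-type enzymes, was not tested.

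**Figure D3:**
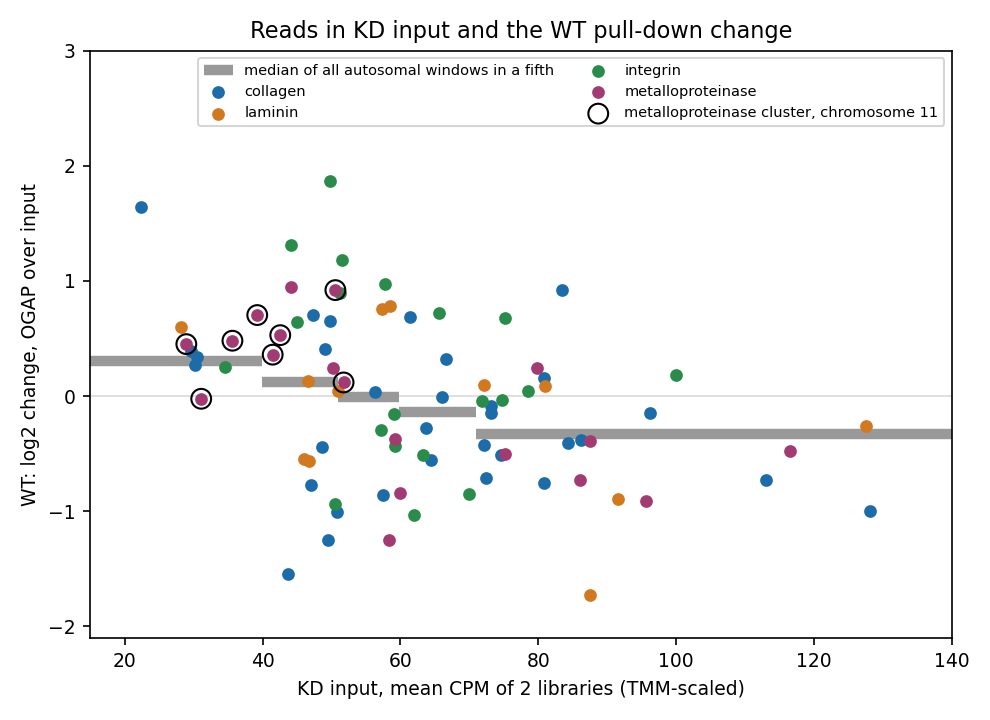
WT log2 change of OGAP over input (vertical axis) against the mean KD input level in TMM-scaled CPM (horizontal axis) for the 83 tested members, coloured by family. Grey bars are the medians of all autosomal windows in 5 bins of KD input and black rings mark the 8 windows of the chromosome 11 metalloproteinase cluster; the bars step down from 0.30 to -0.33, and the ringed points lie at 28.9 to 51.7 CPM.

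Compared as families by summed level, integrin promoters stood higher in OGAP than in input in both states. Collagen and metalloproteinase promoters stood lower. The summed level of the 20 tested integrin windows was 1501 and 1390 CPM in KD OGAP against 1181 and 1260 CPM in KD input. In WT it was 1466 and 1548 CPM in OGAP against 1259 and 1210 CPM in input. All OGAP sums lay above all inputs, with ratios of the means of 1.19 in KD and 1.22 in WT. Without ITGA10, ITGA2B and ITGB5, the ratios were 1.12 in KD and 1.06 in WT. The OGAP sums still lay above the inputs of the same state, in KD by 1138 against 1136 CPM at the closest. TMM multiplied library sizes by 0.964 and 0.963 for the WT pull-downs, and by 1.02 and 1.01 for their inputs. For KD the factors were 1.0003 and 0.995, and 1.02 and 1.03. Scaled levels summed over all tested windows are therefore also higher in OGAP. The family ratios were not set against this background, so no excess of the remaining integrins is read from them.

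The summed level of the 32 collagen windows was 1872 and 1774 CPM in KD OGAP against 2068 and 2037 CPM in KD input. In WT it was 1846 and 1786 CPM in OGAP against 2003 and 2086 CPM in input. The ratio of means was 0.888 in each state. Without the 5 collagens past the threshold it was 0.893 in KD and 0.894 in WT, again without overlap of the libraries. Of the 32 collagen windows 13 fell in the highest of the 5 bins of KD input, as did 5 of the 20 integrin windows. The median WT change over all autosomal windows in that bin was -0.33. The part of the input level in these sums was not tested. Laminin sums overlapped between OGAP and input in both states, with ratios of 0.965 in KD and 0.921 in WT. Without LAMC1 the ratios were 1.009 in KD and 1.02 in WT, again with overlap. As unscaled shares of all promoter reads, laminins with LAMC1 were lower in both WT OGAP libraries (0.07542% and 0.06395%) than in WT input (0.07735% and 0.08222%). In KD these shares overlapped, at 0.08337% and 0.06803% in OGAP against 0.07944% and 0.08198% in input. Metalloproteinase sums were lower in OGAP, at 1074 and 882.6 CPM in KD OGAP against 1131 and 1136 CPM in KD input, and at 965.7 and 967.1 CPM in WT OGAP against 1142 and 1009 CPM in WT input. Without MMP23B the WT sums overlapped. These sums are descriptions of chosen members and were given no test.

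The median fitted log2 change of the integrins was 0.29 in KD and 0.11 in WT, against 0.03 and -0.02 over all windows. Collagens had medians of -0.09 in KD and -0.21 in WT, and laminins 0.07 in each. Metalloproteinases had -0.21 in KD and 0.12 in WT, where the WT median differs in sign from the sum and turned to -0.29 without WT OGAP replicate 1 and -0.17 without WT OGAP replicate 2. The laminin WT median likewise fell below 0 without either WT OGAP library or WT input replicate 1, to -0.10 at the lowest. The signs of the integrin and collagen medians held in every alternative run with edgeR, between 0.05 and 0.36 for integrins and between -0.28 and -0.07 for collagens. No family medians were computed for the DESeq2 test.

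OGAP over input in KD cells asked the same of depleted cells. No member passed, against 0.736% of all windows (edgeR). With DESeq2 also 0 were called, but only 6 members received an adjusted p. At an unadjusted p under 0.05 there were 13 members, 4 higher and 9 lower, beside 12.6% of all windows (8.2% higher and 4.42% lower).

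The promoters with the lowest p in KD were spread over the families. MMP24, a membrane-type enzyme of neural tissue (ENSG00000125966, chromosome 20, 35225653 to 35227653, plus strand), had 46.8 and 31.6 CPM in KD OGAP against 82.1 and 92.9 CPM in KD input. Its change was -1.13 ± 0.36 (adjusted p = 0.118, edgeR), and it was at -0.39 ± 0.38 in WT. COL13A1 had 86.5 and 47.4 CPM in KD OGAP against 124 and 133 CPM in KD input, a change of -0.91 ± 0.30 (adjusted p = 0.124, edgeR) that is close to its -1.0 in WT. ITGA8, an alpha subunit for fibronectin and nephronectin (ENSG00000077943, chromosome 10, 15719126 to 15721126, minus strand), had 64.9 and 79.0 CPM in KD OGAP against 44.7 and 24.4 CPM in KD input. Its change was 1.04 ± 0.38 (adjusted p = 0.184, edgeR), and its libraries did not overlap.

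COL9A3, a cartilage collagen (ENSG00000092758, chromosome 20, 62815243 to 62817243, plus strand), showed how much a single library could weigh. It had 75.7 and 13.5 CPM in KD OGAP, from 42 and 6 reads, against 73.5 and 99.0 CPM in KD input. Its change was -0.88 ± 0.36 (adjusted p = 0.253, edgeR) with both OGAP libraries. Without KD OGAP replicate 1 it was -2.66 and passed (adjusted p = 0.0122, edgeR), and without KD OGAP replicate 2 it was -0.19.

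The members past the threshold in WT had KD changes on the same side with 1 exception, as most windows past the threshold did. The 5 higher windows were all positive in KD, at 0.81 for ITGA10, 0.82 for ITGA2B, 0.52 for ITGB5, 0.16 for COL3A1 and 0.14 for COL17A1. Of the 5 lower windows, LAMC1 (-0.70), COL13A1 (-0.91), MMP23B (-0.63) and COL4A1 (-0.57) were negative and COL22A1 (0.48) was positive. None of these KD values passed, with adjusted p from 0.124 for COL13A1 to 0.934 for COL3A1 (edgeR). The median was 0.52 in KD against 1.31 in WT for the higher members, and -0.63 in KD against -1.25 in WT for the lower ones. Over all windows past the threshold in WT, 93.2% of the higher and 16% of the lower ones were positive in KD, and the medians were 0.62 in KD against 1.34 in WT for the higher and -0.35 in KD against -1.28 in WT for the lower. The windows were picked by their WT values, so a smaller KD value is built into the choice. Of the other members named for WT, LAMA5 was at -0.37, LAMC3 at 0.46, MMP15 at -0.63 and MMP26 at 0.45 in KD, and none passed (adjusted p = 0.392 to 0.681, edgeR). Across the 83 members the KD and WT changes had a Spearman correlation of 0.514, and across all 16416 autosomal windows 0.505. The 2 comparisons share no library but come from 1 fit.

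**Figure D4:**
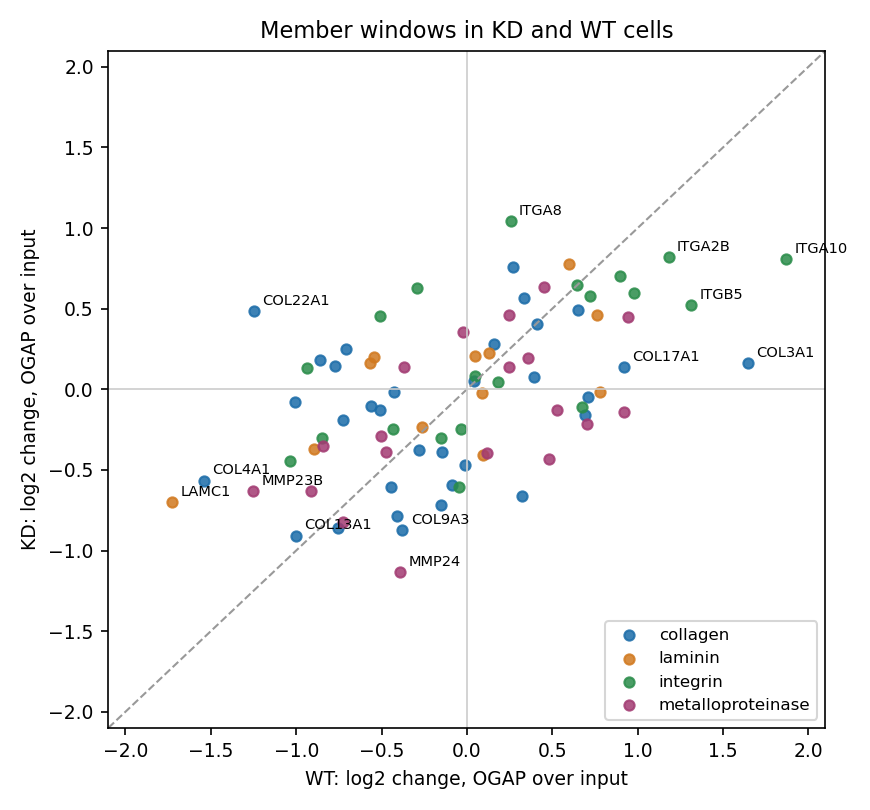
Log2 change of OGAP over input in KD cells (vertical axis) against the same in WT cells (horizontal axis) for the 83 tested members, coloured by family. The dashed line marks equal change; the members past the threshold in WT are named with COL9A3, ITGA8 and MMP24, and ITGA10, ITGB5, COL3A1 and LAMC1 lie nearer to 0 in KD than in WT, while COL22A1 is on the other side of 0.

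KD against WT within OGAP asked whether the level of each promoter in the pull-down differed with depletion. No member passed, against 0.035% of all windows (edgeR), and DESeq2 called 0, with 2 at an unadjusted p under 0.05. With edgeR 8 members were under 0.05 unadjusted, 4 higher and 4 lower, beside 10.6% of all windows (4.96% higher and 5.59% lower). COL22A1 had the lowest p, with 82.9 and 54.2 CPM in KD OGAP against 22.7 and 23.8 CPM in WT OGAP. These groups did not overlap, and the change was 1.57 ± 0.45 (adjusted p = 0.204, edgeR).

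The other low p-values were shared between the families. MMP13, a collagenase (ENSG00000137745, chromosome 11, 102954735 to 102956735, minus strand), had 21.6 and 31.6 CPM in KD OGAP against 51.1 and 63.4 CPM in WT OGAP, a change of -1.12 ± 0.47 (adjusted p = 0.379, edgeR). ITGAE, the alpha subunit of an integrin of intraepithelial lymphocytes (ENSG00000083457, chromosome 17, 3800244 to 3802244, minus strand), had 93.7 and 79.0 CPM in KD OGAP against 39.8 and 55.5 CPM in WT OGAP, a change of 0.86 ± 0.37 (adjusted p = 0.396, edgeR). COL3A1 had 27.0 and 22.6 CPM in KD OGAP against 62.5 and 50.2 CPM in WT OGAP, a change of -1.17 ± 0.52 (adjusted p = 0.404, edgeR). In these windows and in COL23A1, a transmembrane collagen at -0.84 ± 0.38 (adjusted p = 0.415, edgeR), the KD and WT OGAP libraries did not overlap. Here and in the other comparisons, windows were named for their low p, which favours such separation. Its share over all windows was not counted, so it adds nothing to the p-values. Of the other members named for WT, COL4A1 was at 0.96, LAMC1 at 0.71, LAMA5 at 0.48, MMP23B at 0.19, MMP15 at 0.17, COL13A1 at 0.12, MMP26 at 0.00, COL17A1 at -0.04, ITGB5 at -0.43, ITGA2B at -0.46, ITGA10 at -0.46 and LAMC3 at -0.51, and none passed (adjusted p = 0.553 to 0.999, edgeR).

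KD against WT within input shows how far the genomic DNA itself differed at these promoters. No member and no window passed (0% of all windows, edgeR), and DESeq2 called 0, with 2 members under 0.05 unadjusted. With edgeR 4 members were under 0.05 unadjusted, all higher in KD, beside 4.41% of all windows (2.29% higher and 2.12% lower). COL28A1, a collagen related to the beaded filament type (ENSG00000215018, chromosome 7, 7534854 to 7536854, minus strand), had 59.1 and 38.1 CPM in KD input against 20.3 and 16.9 CPM in WT input, a change of 1.38 ± 0.50. COL17A1 (0.74 ± 0.31), the fibrillar collagen COL11A1 (0.88 ± 0.37) and MMP27 (0.85 ± 0.42) were the others, and ITGB7, a leukocyte beta subunit, followed at 0.61 ± 0.36; the adjusted p was 0.999 for each (edgeR). The remaining members named for WT lay between -0.43 (MMP23B) and 0.61 (ITGA10) in input.

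The depletion effect on OGAP over input, the KD change minus the WT change, tests the difference between the states directly. No member passed, against 0.00584% of all windows (edgeR), and DESeq2 called 0, with 1 under 0.05 unadjusted. With edgeR 7 members were under 0.05 unadjusted, 5 higher and 2 lower, beside 8.14% of all windows (3.97% higher and 4.17% lower). COL22A1 was again first, at 0.48 in KD against -1.25 in WT, a difference of 1.73 ± 0.58 (adjusted p = 0.427, edgeR). ITGA10 (-1.06 ± 0.49), LAMC1 (1.03 ± 0.50), COL5A3, a minor fibrillar collagen (0.96 ± 0.48), and COL3A1 (-1.48 ± 0.74) followed, with adjusted p from 0.585 to 0.613 (edgeR). The smaller KD changes of ITGA10, LAMC1 and COL3A1 were thus not separable from the spread. Of the others named for WT, COL4A1 was at 0.98, MMP23B at 0.62, LAMA5 at 0.53, MMP15 at 0.28, COL13A1 at 0.09, LAMC3 at -0.30, ITGA2B at -0.36, MMP26 at -0.50, COL17A1 at -0.78 and ITGB5 at -0.79.

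Genes that act with the 4 families were counted in the same fit, with the WT shares of 9.25% higher and 4.45% lower over all windows as background. No values from the alternative fits are given for these lists, so how far their calls rest on single libraries is not known here. Of 13 inhibitors and activators of metalloproteinases, PLAUR (1.28 ± 0.32), the urokinase receptor gene, and PLAU (0.97 ± 0.29), the urokinase gene, were higher in WT OGAP, and SERPINE2 (-1.17 ± 0.41), a protease inhibitor gene, was lower (adjusted p = 0.00318, 0.0158 and 0.0406, edgeR). The PLAUR window had 50 and 46 reads in the WT OGAP libraries, and 26 and 56 in the WT inputs, which were about 2 times as deep. The PLAU window had 44 and 65 reads in OGAP, and 45 and 70 in input. The PLAUR inputs were far from each other, and the list median was 0.38.

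Of 20 tested genes for collagen processing and crosslinking, 1 was higher and 1 lower in WT. P3H2, a prolyl hydroxylase gene, was at 1.04 ± 0.36 and ADAMTS14, a procollagen peptidase gene, at -0.96 ± 0.31 (adjusted p = 0.0360 and 0.0268, edgeR), with a list median of -0.22. Of 23 integrin adaptors and non-integrin matrix receptors, 1 was higher and 3 lower, with a median of -0.37. DAG1, the dystroglycan gene, was at 1.19 ± 0.27, and TNS3 (-1.49 ± 0.38, a tensin), CD47 (-1.36 ± 0.41, an integrin-associated protein) and PTK2 (-1.14 ± 0.39, focal adhesion kinase) were lower (adjusted p = 0.000876, 0.00416, 0.0157 and 0.0371, edgeR). None of 20 other matrix and basement membrane genes passed, with 2 under 0.05 unadjusted; the lowest p was that of NID1, a nidogen gene, at -0.88 ± 0.36 (adjusted p = 0.0817, edgeR).

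In the other comparisons no gene of these lists passed. The lowest p-values in KD OGAP over input were those of PLAU (0.89 ± 0.30), ADAMTS2 (-1.08 ± 0.34), a procollagen peptidase gene, BCAR1 (0.91 ± 0.35), an adaptor gene, and ELN (-0.55 ± 0.31), the elastin gene, with adjusted p from 0.106 to 0.468 (edgeR). For KD against WT in OGAP they were those of DAG1 (-0.95 ± 0.27), RECK (-1.18 ± 0.44), a membrane inhibitor of metalloproteinases, ADAMTS14 (0.81 ± 0.33) and THBS2 (0.88 ± 0.42), a thrombospondin gene, with adjusted p from 0.199 to 0.432 (edgeR). In input, TFPI2 (0.73 ± 0.36), SERPINH1 (-0.62 ± 0.30), BCAR1 (-0.92 ± 0.33) and AGRN (-0.43 ± 0.32) had the lowest p of their lists, with an adjusted p of 0.999 each (edgeR). For the depletion effect they were RECK (-1.43 ± 0.57), ADAMTS14 (1.13 ± 0.42), FERMT3 (1.27 ± 0.48) and NTN4 (1.08 ± 0.60), with adjusted p from 0.486 to 0.648 (edgeR).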

How the data were processed

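OGAP and input DNA of WT and KD RPE1 cells was measured as reads per promoter window. The authors deposited whole-number counts for 19957 Ensembl genes in 8 libraries; reads were placed on hg38, and BWA 0.7.17-r1188, featureCounts, bedtools and MACS2 are listed, per the submitters' processing notes; the settings of these tools are unknown here. The deposited coverage profiles around genes were not used here, since they hold no single gene, and 0 columns of per-sample values went unused.

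The counts carry Ensembl identifiers without symbols. A window was named where its centre lay within 500 bp of a RefSeq start (GRCh38.p14) of a protein-coding gene on its strand, provided that no other gene and no other window competed. This named 15656 windows (78.4%), against 1.09% after a shift of 200 kb. The whole symbol had to match, on chromosomes other than X and Y. Of the 103 genes, 17 were not named: COL2A1, COL4A2, COL5A2, COL6A6, COL9A2, COL11A2, COL14A1, COL15A1, ITGA1, ITGB1, ITGB2, ITGB3, ITGB6, MMP2, MMP8, MMP11 and MMP16. Of all windows 3741 (18.7%) overlap another, 4 members among them.

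Counts were fitted with edgeR 4.0.16 in R 4.3.3 (TMM, filterByExpr, 4 group means, quasi-likelihood test), with Benjamini-Hochberg adjustment over 17130 windows and a threshold of 0.05. The common biological coefficient of variation was 0.178, with 98.4 prior against 4 residual degrees of freedom, so that a window's SE says little about its own libraries. The SE was derived from the log2 change and the F value and is approximate. Levels in CPM used TMM-scaled library sizes. Replicates differed by more than sampling noise (chi-square per degree of freedom 1.91 to 2.15), so none was merged. Replicate numbers did not pair the libraries (correlations of deviations -0.0397 to 0.0245). The fit was tested on simulated counts.

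Text names every member past the threshold, the 3 lowest p of each family in WT, and the 5 lowest p elsewhere; of the pathway lists, those past the threshold, else the lowest p. The members and lists were chosen with earlier results of these data known. Alternatives were DESeq2 1.42.0, DESeq2 size factors in edgeR, no count filter, a replicate block, windows overlapping no other, and leaving out each library.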

Additional observations from a re-analysis of the deposited data

How the results depend on the processing

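In WT, members called over 8 fits that each left out a library ranged from 3 to 11 and windows called from 879 to 2455; DESeq2 gave 2 and 884. Family medians in WT ranged over these fits from -0.2764 to -0.2151 for collagens, -0.1036 to 0.06742 for laminins, 0.04871 to 0.2449 for integrins and -0.2872 to 0.2005 for metalloproteinases. Without a count filter the WT collagen median was -0.2236 and the laminin median 0.04192, and over windows overlapping no other the collagen median was -0.139. In KD, members called ranged from 0 to 1 and windows from 7 to 163 over the left-out libraries, and DESeq2 gave 64 windows. The KD medians ranged from -0.184 to -0.07088 for collagens, 0.2388 to 0.3641 for integrins and -0.2798 to -0.05924 for metalloproteinases, and the integrin median was 0.1112 without a filter. For KD against WT in OGAP windows called ranged from 0 to 13, with 12 without a filter and 0 with DESeq2. For the depletion effect they ranged from 0 to 6, with 3 under DESeq2 size factors, 3 without a filter, 3 over windows overlapping no other and 0 with DESeq2. No called value changed sign. The causes of these moves were not tested.

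With a replicate block 7 members passed in WT, without COL17A1, COL22A1 and COL4A1, and the collagen median was -0.2237; the numbers are not known to pair the libraries. Counted as pairs of a named member and a fit, 46 pairs lost a call and 6 gained one, on MMP15, LAMA5 and COL9A3. Depth limits all of this: the median member held 19 to 33.5 reads in an OGAP library.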
